A study of Sus scrofa with 48 samples.

Results

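The genes described here carry long-chain fatty acids from blood triglyceride into the muscle fibre and oxidise them, from lipoprotein lipase at the capillary wall to the electron transfer flavoproteins of the mitochondrion. A list of 38 such genes was matched to the annotated spots of a porcine expression array by gene name, or by the symbol in round brackets in the spot description. For 35 of the 38 genes, 131 probes were found, and 125 of these, from all 35 genes, passed the filter, a signal flagged as well above background in no fewer than 12 pigs. These 125 belonged to the 42125 probes tested of 60305 on the array. No spot carried the names ECI1, ACSL6 or ACOT2, and no other gene was lost to the filter. The matching and the filter used no measured difference between groups, but the genes were listed with earlier results of these data known.

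The arrays measured total RNA of longissimus muscle, 1 array per pig, from 48 barrows of a pair of pure Large White lines bred apart for residual feed intake (RFI), the part of feed intake that production and maintenance do not account for. The low RFI line (RFIneg) eats less than predicted and the high RFI line (RFIpl) eats more. Within each line, 12 pigs had free access to a diet high in fat and fiber (HF) and 12 to a diet low in both (LF), so the groups were HF_RFIneg, HF_RFIpl, LF_RFIneg and LF_RFIpl, with 12 pigs in each. The questions were how expression differed between the lines and between the diets. Each line is a single selected population, so a line difference is one between these populations, and the ages of the pigs were not given in the sources used here. The 48 arrays lay on 6 slides with 2 arrays of each group on every slide. Between 59.2 and 74.2% of the probes were well above background on an array, and no spot of a gene described here was saturated. All 7 skeletal muscle markers (ACTA1, CKM, MB, MYLPF, DES, TTN and NEB) were well above background on all 48 arrays.

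Fatty acids freed by lipoprotein lipase enter the fibre, are bound by FABP3 and are activated to acyl-CoA esters by the ACSL synthetases. CPT1, the carnitine carriers and CPT2 bring the acyl group into the mitochondrial matrix, where acyl-CoA dehydrogenases, a hydratase, a dehydrogenase and a thiolase shorten it in turn, and ETFA, ETFB and ETFDH pass the electrons to the respiratory chain. The receptors PPARA and PPARD, with the coactivator PPARGC1A, switch on many of these genes, and PDK4 spares glucose by inhibiting the pyruvate dehydrogenase complex.

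All values below are log2 spot signals minus the mean of the tested probes of the same array, so that 0 is the array mean and a difference of 1 is a doubling. Since probes bind with unequal strength, no level of one gene was set against that of another. A gene is given by its representative probe, the tested probe with the highest mean signal. A difference is called when its limma p-value, adjusted by the Benjamini-Hochberg procedure over all 42125 probes, is under 0.05. In whole muscle, fewer cells of a type and less RNA per cell cannot be told apart.

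Several results turned on which probe read a gene, and the probe sequences are therefore shown first, 5′ to 3′ as the array files give them. The first pair reads ECHS1, the enoyl-CoA hydratase of the mitochondrial cycle. The probes overlap over 52 bases and are identical at 51 of them. Capitals mark the base that differs, C24A counted from 1 at the 5′ end of probe A_72_P278464, within stretches of 30 bases.
ECHS1 A_72_P278464: agaatgtagcctgtCggtttcagaagcaaa
ECHS1 A_72_P112436: agaatgtagcctgtAggtttcagaagcaaa
The next pair reads ANGPTL4, a secreted inhibitor of lipoprotein lipase. It shares 57 of 58 overlapping bases and differs at A1G, counted from the 5′ end of the first probe and in capitals.
ANGPTL4 A_72_P718758: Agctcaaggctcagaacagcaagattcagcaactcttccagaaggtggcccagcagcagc
ANGPTL4 A_72_P359633: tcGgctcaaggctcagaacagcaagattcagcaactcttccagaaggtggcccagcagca
The representative probe of ACSL3 holds a run of 20 bases that also occurs in a probe of its relative ACSL4, here in capitals within stretches of 30 bases.
ACSL3 A_72_P668286: ccaggcgGACATTGAGCGAATGTATGGaag
ACSL4 A_72_P444819: tcaaaGACATTGAGCGAATGTATGGgggca
The line difference of ACSL3 was called at another probe, and that of HADH at a pair of probes that were not the representative one. These 3 probes are shown whole and carry no capitals.
ACSL3 A_72_P383243: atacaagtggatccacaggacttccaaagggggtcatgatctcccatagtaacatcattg
HADH A_72_P603143: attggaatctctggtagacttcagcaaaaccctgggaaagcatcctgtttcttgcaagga
HADH O13591: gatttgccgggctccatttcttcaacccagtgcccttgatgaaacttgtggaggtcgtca

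Between the lines, most of the oxidation genes differed little. At the representative probe, 5 of the 35 genes were called: the high RFI line had more DECR1 and ANGPTL4 and less ACSL1, PPARD and ECHS1. That is 14.3% of the genes, against 16.4% of all tested probes called in the line difference, with 6.57% of all probes called higher and 9.85% called lower. Over single probes, 13 of the 125 were called (10.4%), 6 higher and 7 lower. HADH, ACSL3 and UCP3 were called only at probes other than the representative one, so 8 genes had a called probe. The genes had 1 to 11 tested probes, and no such count by gene was made over the whole array. The 8 therefore have no background share, and the share of all probes is not one for them. No gene was called at all of its probes. The median line difference of the 35 genes was 0.02 and that of all tested probes was −0.03, and the median absolute differences were 0.08 and 0.10.

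**Figure D1:**
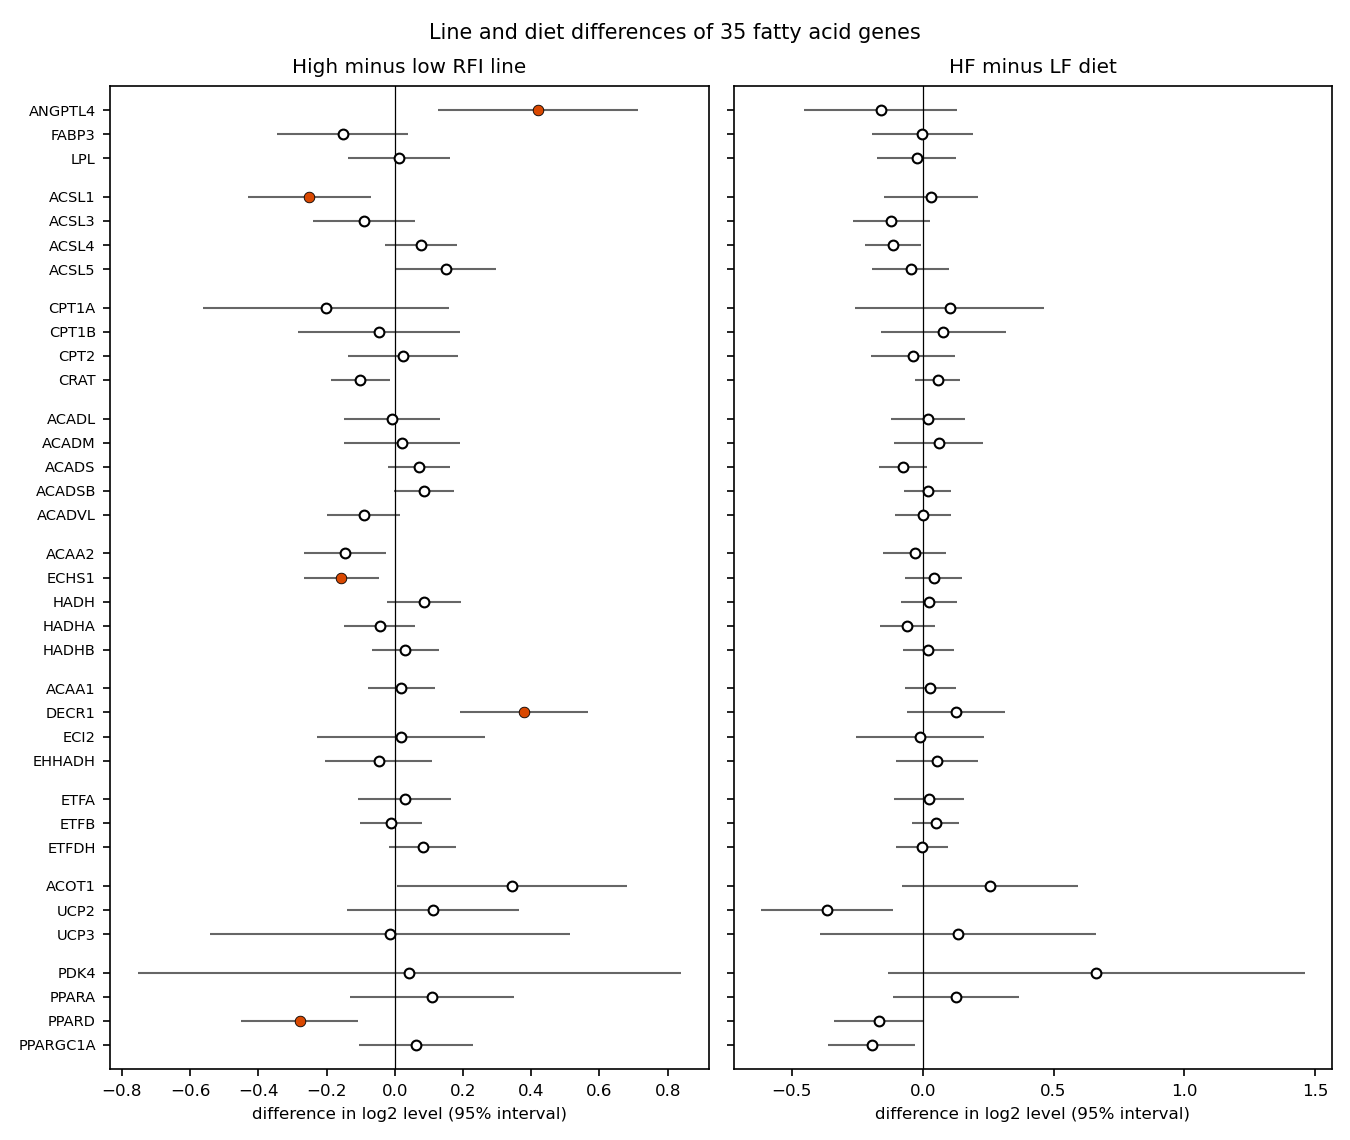
Difference in log2 level (x axis) of each of the 35 genes at its representative probe, high minus low RFI line on the left and HF minus LF diet on the right, grouped by role from uptake at the top to regulators at the bottom. Bars are 95% limma intervals and filled points are called differences: 5 genes on the left (DECR1, ANGPTL4, ACSL1, PPARD, ECHS1) and none on the right, with PDK4 having the widest interval in both.

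DECR1, the reductase that lets the cycle handle unsaturated fatty acids, had the smallest adjusted p of the representative probes. On the LF diet, low RFI pigs ranged from 0.63 to 1.95 (median 1.23) and high RFI pigs from 1.23 to 2.01 (median 1.55). On the HF diet, low RFI pigs ranged from 0.57 to 1.91 (median 1.40) and high RFI pigs from 1.34 to 2.22 (median 1.70). The ranges of the lines overlapped, but 23 of the 24 high RFI pigs lay above the mean of the low RFI line. The difference was 0.38 ± 0.09 (SE, 24 pigs in each line), a 1.30-fold higher signal (limma, adjusted p = 0.00424). Among HF pigs it was 0.39 and among LF pigs 0.36, and it was above 0 on each of the 6 slides (0.20 to 0.60). A second probe that followed it closely over the pigs (r = 0.99, 48 pigs) gave 0.38 (adjusted p = 0.00564). The other 3 DECR1 probes were not called, at 0.17, 0.13 and −0.14. The last of these (O11864) barely followed the representative probe (r = 0.08). Averaged over its 5 probes, DECR1 differed by 0.19 and was no longer called (adjusted p = 0.0586).

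Of the genes of uptake and binding, ANGPTL4 was higher in the high RFI line. On the LF diet it ranged from 0.02 to 1.47 (median 0.75) in the low RFI line and from 0.01 to 1.99 (median 1.08) in the high RFI line. On the HF diet the ranges were −0.28 to 1.21 (median 0.58) and 0.13 to 1.76 (median 1.26). The lines overlapped over most of their range. The difference was 0.42 ± 0.15 (SE, 24 pigs in each line, 1.34-fold), with a limma adjusted p of 0.0402, and it was above 0 on all 6 slides. All 4 ANGPTL4 probes rose and fell together over the pigs (r with the representative probe 0.88 to 0.94), and their differences were 0.29 to 0.43. The overlapping pair printed above gave 0.43 and 0.42, of which the first was called (adjusted p = 0.0327) and the second was not (adjusted p = 0.105). The call was lost when the 4 probes were averaged (0.39, adjusted p = 0.053) and without the filter on dim probes (adjusted p = 0.0795). The enzyme it inhibits, LPL, differed by 0.01 (95% interval −0.14 to 0.16), and the binding protein FABP3 by −0.15 (−0.34 to 0.04), neither of them called. LPL probe O15020 gave 0.34, was not called and followed the representative one weakly (r = 0.35). The remaining LPL probes gave −0.01 to 0.04.

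Markers of other cell types were read beside these genes, and their part in the results was not tested. Of 8 adipocyte markers, FABP4 (0.32) and LIPE (0.31) were called higher in the high RFI line, while ADIPOQ, PLIN1, CIDEC, LEP, DGAT2 and PCK1 were not. The mean level of the 8 spanned −0.13 to 1.10 in HF_RFIneg, 0.23 to 1.78 in HF_RFIpl, −0.07 to 1.59 in LF_RFIneg and 0.15 to 1.39 in LF_RFIpl. Of 4 macrophage markers, CSF1R (0.94) and AIF1 (0.43) were called higher. CD163 (0.52; limma, adjusted p = 0.0555) and CD68 (0.40, adjusted p = 0.170) also lay above 0 but were not called. The mean level of the 4 spanned −2.48 to −0.86 in HF_RFIneg, −1.66 to 0.58 in HF_RFIpl, −1.84 to −0.70 in LF_RFIneg and −1.73 to −0.16 in LF_RFIpl. TEK was called higher among 5 endothelial markers and COL1A1 among 5 fibroblast markers. Among the fibre markers, at the representative probe, TTN was called lower of 7 general ones and TNNI2 and ATP2A1 of 6 fast ones. None of the 6 slow ones tested or of the 2 blood ones tested was called there. The second TTN probe went the other way, at 0.75, and was not called. Markers not called at the representative probe had called probes in CKM (6 of 11), MYLPF (3 of 5), NEB (1 of 3) and MYH4 (5 of 10). The same held for TNNT3 (3 of 5), TNNC2 (1 of 6), the slow marker ATP2A2 (1 of 21) and the macrophage marker CD163 (1 of 6). All markers tested were well above background on 48 arrays, except CSF1R (35), PDGFRA (32) and CD68 (28).

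Among the activating enzymes, ACSL1, the main acyl-CoA synthetase of muscle and fat, was lower in the high RFI line. Its representative probe ranged from 4.85 to 5.81 (median 5.59) in LF_RFIneg, 4.56 to 5.65 (median 5.27) in LF_RFIpl, 4.96 to 5.95 (median 5.47) in HF_RFIneg and 4.82 to 5.83 (median 5.38) in HF_RFIpl. All groups overlapped. The difference was −0.25 ± 0.09 (SE, 24 pigs in each line; limma, adjusted p = 0.0477), and it was below 0 on all 6 slides. The call was lost under 5 of 11 alternatives (adjusted p 0.0556 to 0.113 in those). Probe A_72_P443272 of the same gene differed by −0.41 ± 0.10 (adjusted p = 0.00449), also below 0 on all 6 slides, and 23 of the 24 low RFI pigs lay above the high RFI mean. The other 2 ACSL1 probes gave −0.15 and −0.27 and were not called, so all 4 lay on the same side. ACSL4 and ACSL5 differed by 0.08 and 0.15 without being called. The 8 ACSL4 probes differed in sign, from −0.18 at A_72_P444819 to 0.23 at O10047, and none was called.

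ACSL3, a synthetase known from lipid droplets, had the lowest adjusted p of all 125 probes. At probe A_72_P383243 the pigs of LF_RFIneg ranged from 1.31 to 1.96 (median 1.58) and those of LF_RFIpl from 0.90 to 1.83 (median 1.24). On the HF diet the ranges were 0.94 to 2.13 (median 1.54) and 0.87 to 1.59 (median 1.08). Although the ranges overlapped, 23 of the 24 high RFI pigs lay below the low RFI mean. The difference was −0.39 ± 0.07 (SE, 24 pigs in each line; limma, adjusted p = 7.80e-05). It was the only probe of these genes that was also called within a diet, at −0.43 on the HF diet (adjusted p = 0.00625) and −0.35 on the LF diet (adjusted p = 0.0347). It lay below 0 on 5 of the 6 slides (−0.56 to 0.03). The other 2 ACSL3 probes did not share it: A_72_P668286 gave −0.09 and A_72_P080318 −0.05, with upper and lower 95% limits of −0.24 to 0.06 and −0.18 to 0.09. Those probes followed each other over the 48 pigs (r = 0.92), and the called probe followed the representative one less closely (r = 0.55). The representative ACSL3 probe and the ACSL4 probe with the shared run of 20 bases were not alike over the pigs (r = −0.14).

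**Figure D2:**
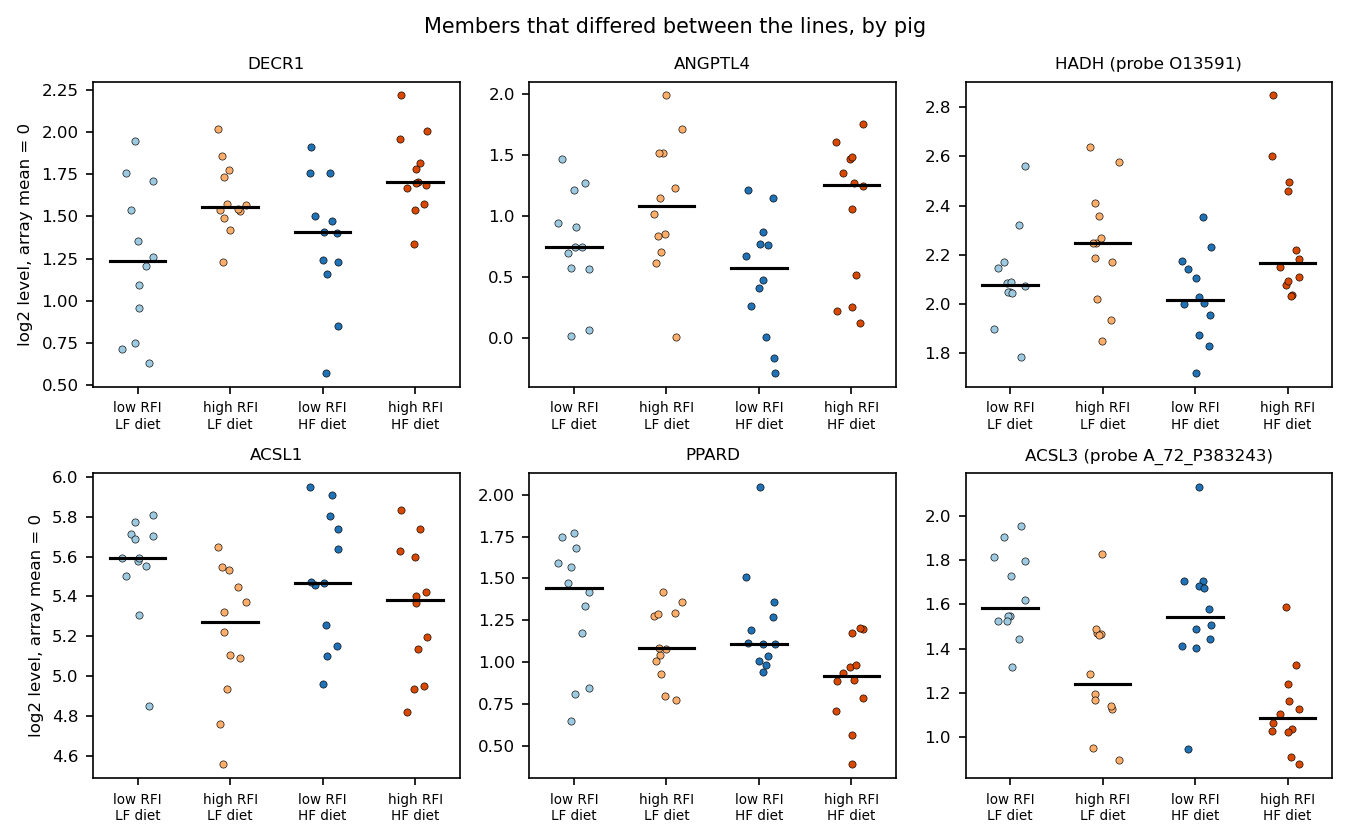
Log2 level, with the array mean at 0 (y axis), of 6 genes with a called line difference in each pig of the 4 groups (12 points each, bar at the median). DECR1, ANGPTL4 and HADH had higher medians in high RFI pigs on both diets and ACSL1, PPARD and ACSL3 had lower ones, with overlap between the lines in every panel.

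The carnitine shuttle was not called. CPT1B, the muscle form of the gatekeeping transferase, differed by −0.05 (95% interval −0.28 to 0.19), CPT2 by 0.02 (−0.14 to 0.18) and CRAT, which buffers short acyl groups, by −0.10 (−0.19 to −0.02, adjusted p = 0.0961). Under quantile normalization the difference of CRAT turned to 0.023. CPT1B pigs ranged from 0.61 to 2.23 (median 1.60) in LF_RFIneg, 0.58 to 2.05 (median 1.49) in LF_RFIpl, 0.75 to 2.27 (median 1.64) in HF_RFIneg and 0.74 to 2.20 (median 1.67) in HF_RFIpl. CPT1A, the form typical of liver, had a wide interval (−0.56 to 0.16) around −0.20.

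Of the enzymes of the mitochondrial cycle, ECHS1 and HADH were called at some of their probes and are described below, and the others were not called. Over the representative probes of the 5 acyl-CoA dehydrogenases (ACADVL, ACADL, ACADM, ACADS and ACADSB), the differences ran from −0.09 to 0.09, and the limits of their 95% intervals from −0.20 to 0.19. Outside that range, ACADS probes A_72_P565449 and A_72_P061711 gave 0.16 and 0.14 (limma, adjusted p = 0.0775 and 0.106). ACADL probe O13893 gave −0.11 (adjusted p = 0.288), and a further ACADL probe is described below. Over the representative probes of ETFA, ETFB and ETFDH the differences ran from −0.01 to 0.08, with limits from −0.11 to 0.18. The trifunctional protein subunits HADHA and HADHB differed by −0.04 (−0.15 to 0.06) and 0.03 (−0.07 to 0.13). Of the other 4 HADHA probes, A_72_P736892 and A_72_P092111 gave −0.19 (adjusted p = 0.0972) and −0.18 (adjusted p = 0.104) and followed the representative one weakly (r = 0.27 for each). The thiolase ACAA2, which ends each round of the cycle, differed by −0.15 (95% interval −0.27 to −0.03) at its probe without being called (limma, adjusted p = 0.0822, and 0.0504 to 0.193 under the alternatives). HADHA ranged from 2.89 to 3.62 over the 48 pigs and HADHB from 4.02 to 4.82, with group medians of 3.12 to 3.19 and 4.45 to 4.55. For ETFA and ETFB the group medians ran from 4.78 to 4.88 and from 6.12 to 6.30, and the pigs from 4.33 to 5.52 and from 5.89 to 6.44. For the core of 13 dehydrogenases, hydratase, thiolase and electron transfer genes, no 95% interval of a representative probe reached beyond −0.27 or 0.20. These limits do not cover the other probes of the same genes, such as those of HADHA above and of HADH below.

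HADH, the hydroxyacyl-CoA dehydrogenase for shorter chains, was called higher in the high RFI line at both probes printed above. Probe O13591 ranged from 1.79 to 2.56 (median 2.08) in LF_RFIneg, 1.85 to 2.64 (median 2.25) in LF_RFIpl, 1.72 to 2.36 (median 2.02) in HF_RFIneg and 2.03 to 2.85 (median 2.17) in HF_RFIpl. The difference was 0.19 ± 0.06 (SE, 24 pigs in each line; limma, adjusted p = 0.0353), above 0 on all 6 slides. Probe A_72_P603143 gave 0.17 (adjusted p = 0.0436), also above 0 on all 6 slides. The representative probe gave 0.09 (95% interval −0.02 to 0.20) and was not called, although the 3 probes moved together over the pigs (r with it 0.70 and 0.73). Without the filter on dim probes neither probe was called (adjusted p = 0.0624 for O13591 and 0.0769 for A_72_P603143), and the second was not called either without HF_RFIpl pigs 6 and 10 (adjusted p = 0.0616).

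ECHS1 was called lower in the high RFI line at its representative probe. That probe ranged from 6.43 to 7.16 (median 6.93) in LF_RFIneg, 6.31 to 7.02 (median 6.75) in LF_RFIpl, 6.73 to 7.10 (median 6.89) in HF_RFIneg and 6.43 to 7.01 (median 6.81) in HF_RFIpl. The difference was −0.16 ± 0.05 (SE, 24 pigs in each line; limma, adjusted p = 0.0398) and lay below 0 on 5 of the 6 slides. The call was lost under 5 of 11 alternatives, with an adjusted p of 0.0891 to 0.297 in those. The other 3 probes gave −0.05, −0.11 and −0.11 and were not called. They did not follow the representative probe over the pigs (r = −0.23, −0.09 and −0.16, 48 pigs).

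The lowest of these correlations was that with the probe printed above, which differs from the representative one at 1 of 52 overlapping bases. Among the 35 genes, 15 pairs of probes of one gene overlapped on the same strand by at least 22 bases, with 0 to 12 of the overlapping bases differing. The other 14 pairs had correlations of 0.86 or more over the 48 pigs. For the ECHS1 pair, the difference between the probes in each pig fell into 3 separate ranges. It lay between −0.30 and −0.19 in 6 pigs, between 0.26 and 0.43 in 21 pigs and between 0.95 and 1.18 in 21 pigs. The gaps between the ranges were 0.45 and 0.52, and no other gap between neighbouring pigs exceeded 0.07. Within each range the probes followed each other (r = 0.98, 0.95 and 0.93). The lowest range held 1 low RFI and 5 high RFI pigs, the middle one 12 and 9, and the highest one 11 and 10. These ranges were seen in the values and not planned, so no test was made of them, and their part in the line difference of ECHS1 was not tested.

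A spot that stood apart in 1 pig was found in another dehydrogenase. ACADL probe A_72_P587121 read 9.36 in HF_RFIpl pig 6 and 1.13 to 2.16 in the other 47 pigs. The other 6 ACADL probes of that pig lay 0.02 to 0.53 from their medians. The line difference at this probe, 0.33 with that pig, was 0.00345 without it. It was not called, and the representative ACADL probe gave −0.01.

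Of the auxiliary and peroxisomal enzymes other than DECR1, none was called: ECI2 differed by 0.02, ACAA1 by 0.02 and EHHADH by −0.05. ACOT1, a thioesterase that frees fatty acids from acyl-CoA, differed by 0.34 with a wide interval (0.01 to 0.68, adjusted p = 0.153).

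Among the regulators, the nuclear receptor PPARD was lower in the high RFI line. Its representative probe ranged from 0.65 to 1.77 (median 1.44) in LF_RFIneg, 0.77 to 1.42 (median 1.08) in LF_RFIpl, 0.94 to 2.05 (median 1.11) in HF_RFIneg and 0.39 to 1.21 (median 0.91) in HF_RFIpl. The difference was −0.28 ± 0.08 (SE, 24 pigs in each line; limma, adjusted p = 0.0189), below 0 on 4 of the 6 slides (−0.68 to 0.03). A second probe, A_72_P443751, was called at −0.21 (adjusted p = 0.0348), yet followed the first only loosely over the pigs (r = 0.23). The call of PPARD was lost when its probes were averaged (−0.17, adjusted p = 0.0934) and without the filter on dim probes (adjusted p = 0.0623). The remaining PPARD probe was well above background on only 13 arrays and gave −0.02. PPARA and PPARGC1A differed by 0.11 (95% interval −0.13 to 0.35) and 0.06 (−0.10 to 0.23). The other PPARA probe gave −0.04 and barely followed the representative one (r = 0.08). PPARGC1A ranged from 2.07 to 2.84 (median 2.30) in LF_RFIneg, 1.89 to 3.32 (median 2.24) in LF_RFIpl, 1.70 to 2.50 (median 2.07) in HF_RFIneg and 1.63 to 2.71 (median 2.26) in HF_RFIpl.

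PDK4 varied far more between pigs than between groups. It ranged from −0.18 to 3.89 (median 2.64) in LF_RFIneg, from −0.52 to 5.42 (median 2.62) in LF_RFIpl, from 0.65 to 4.81 (median 2.70) in HF_RFIneg and from 0.58 to 4.73 (median 3.68) in HF_RFIpl. The groups overlapped over most of their range, and the lowest and the highest pig were both in LF_RFIpl. The SD over the 48 pigs was 1.41 and the span from the lowest to the highest pig was 61.6-fold, and 99.4% of all tested probes had a smaller SD. All 11 PDK4 probes followed the representative one (r of 0.96 or more). The line difference was 0.04 (95% interval −0.75 to 0.84) and the diet difference 0.66 (−0.13 to 1.46, adjusted p = 0.496). Neither was called, and both intervals were wide.

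UCP3, an uncoupling protein of muscle mitochondria, had the next largest spread. It ranged from 3.88 to 6.71 (median 5.92) in LF_RFIneg, 4.46 to 7.43 (median 5.40) in LF_RFIpl, 4.46 to 7.0 (median 5.77) in HF_RFIneg and 3.20 to 7.26 (median 6.22) in HF_RFIpl, an 18.7-fold span with an SD of 0.91. Its line difference was −0.02 (95% interval −0.54 to 0.51). Probe O7852 of UCP3 was called lower in the high RFI line, by −0.24 ± 0.08 (SE, 24 pigs in each line; limma, adjusted p = 0.0356). That probe ranged from −1.70 to −0.16 (median −1.51) in LF_RFIneg, −1.85 to −1.46 (median −1.69) in LF_RFIpl, −1.73 to −1.17 (median −1.43) in HF_RFIneg and −1.85 to −1.29 (median −1.56) in HF_RFIpl. LF_RFIneg pigs 9 and 10 stood apart, at −0.16 and −0.46, from the other 46 pigs (−1.85 to −1.17). Without these pigs the difference was −0.14 ± 0.05 (limma, adjusted p = 0.0437), and the call was lost under 5 of 11 alternatives (adjusted p 0.0514 to 0.0998 in those). The probe did not follow the representative probe (r = −0.02), which the remaining probe did (r = 0.98). The spread of CPT1A was the next in order, with an SD of 0.63 and a 4.87-fold span. It ranged from 0.44 to 2.46 (median 1.89) in LF_RFIneg, 0.35 to 2.47 (median 1.74) in LF_RFIpl, 0.97 to 2.63 (median 1.72) in HF_RFIneg and 0.54 to 2.29 (median 1.85) in HF_RFIpl. The median SD of the 35 genes was 0.26, against 0.27 over all tested probes.

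**Figure D3:**
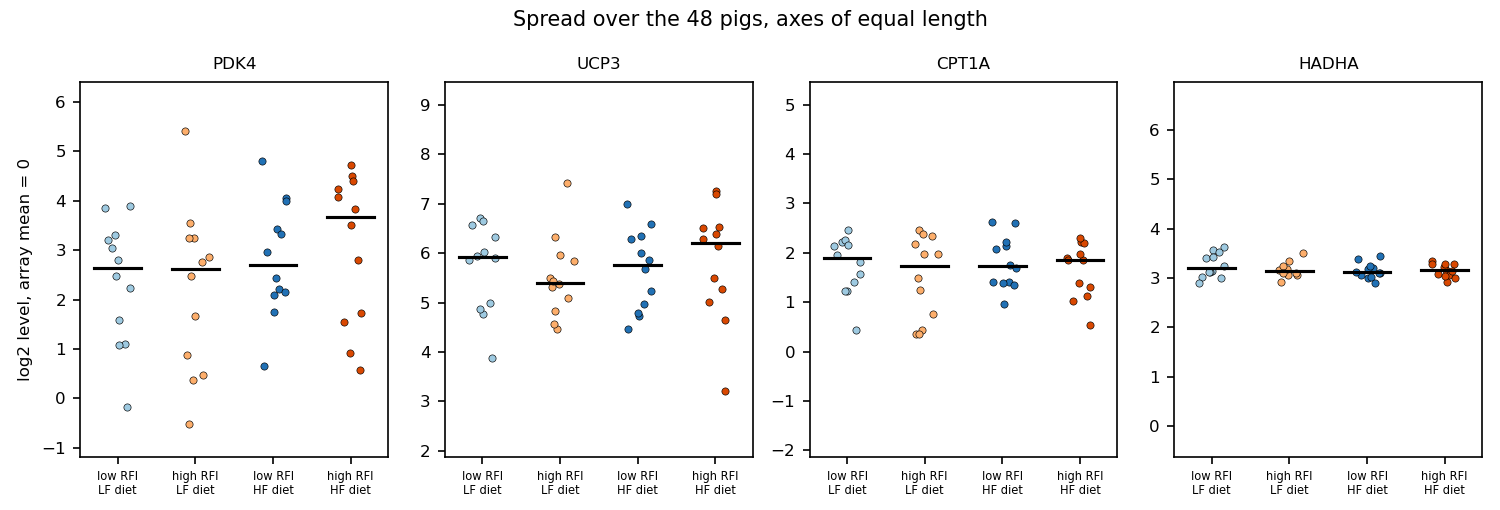
Log2 level, with the array mean at 0 (y axes of equal length), of PDK4, UCP3, CPT1A and HADHA in each pig of the 4 groups (12 points each, bar at the median). The span over the 48 pigs was 61.6-fold for PDK4 and 18.7-fold for UCP3, and HADHA is drawn as a gene of narrow spread.

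Whether genes varied together from pig to pig was computed for 6 pairs of partners or common PPAR targets, after each group's mean was subtracted, with two-sided permutation tests of 100000 permutations within the groups and Benjamini-Hochberg adjustment over the 6 pairs. PDK4 and UCP3 rose and fell together (Pearson r = 0.64, permutation p = 2e-05, adjusted 0.00012; Spearman rho = 0.61, adjusted 0.00012). The correlation was 0.62 in the low and 0.66 in the high RFI line, held without the 2 pigs farthest from the median of PDK4 (r = 0.59) and lay between 0.33 and 0.89 within single slides. PDK4 and CPT1B were also related (r = 0.54, permutation p = 0.0002, adjusted 0.0006; rho = 0.46, adjusted 0.0063). Here r was 0.21 in the low and 0.77 in the high RFI line, a difference that was not tested, and 0.43 without the 2 farthest pigs.

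The other 4 pairs did not pass after adjustment. For PDK4 and ANGPTL4, r was −0.30 (permutation p = 0.0516, adjusted 0.103) and rho −0.33 (permutation p = 0.0276, adjusted 0.0552). For PPARGC1A and PDK4, r was 0.23 (adjusted permutation p = 0.209) and rho 0.30 (adjusted 0.0701). For the subunits of one complex, read at their representative probes, r was 0.10 for HADHA and HADHB (adjusted permutation p = 0.537; rho = 0.07, adjusted 0.633) and 0.13 for ETFA and ETFB (adjusted permutation p = 0.49; rho = 0.12, adjusted 0.508). Without the 2 farthest pigs these 4 values were −0.25, 0.17, 0.05 and 0.12. Within the low RFI line they were −0.38, 0.11, 0.04 and 0.01, and within the high RFI line −0.25, 0.30, 0.18 and 0.20. Within single slides r ran from −0.68 to 0.44, −0.54 to 0.91, 0.01 to 0.26 and −0.16 to 0.73. After slide means were also subtracted they were −0.26, 0.30, 0.11 and 0.34. The last of these, for ETFA and ETFB, had a permutation p of 0.0306 and did not pass after adjustment over the 6 pairs (0.0612).

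**Figure D4:**
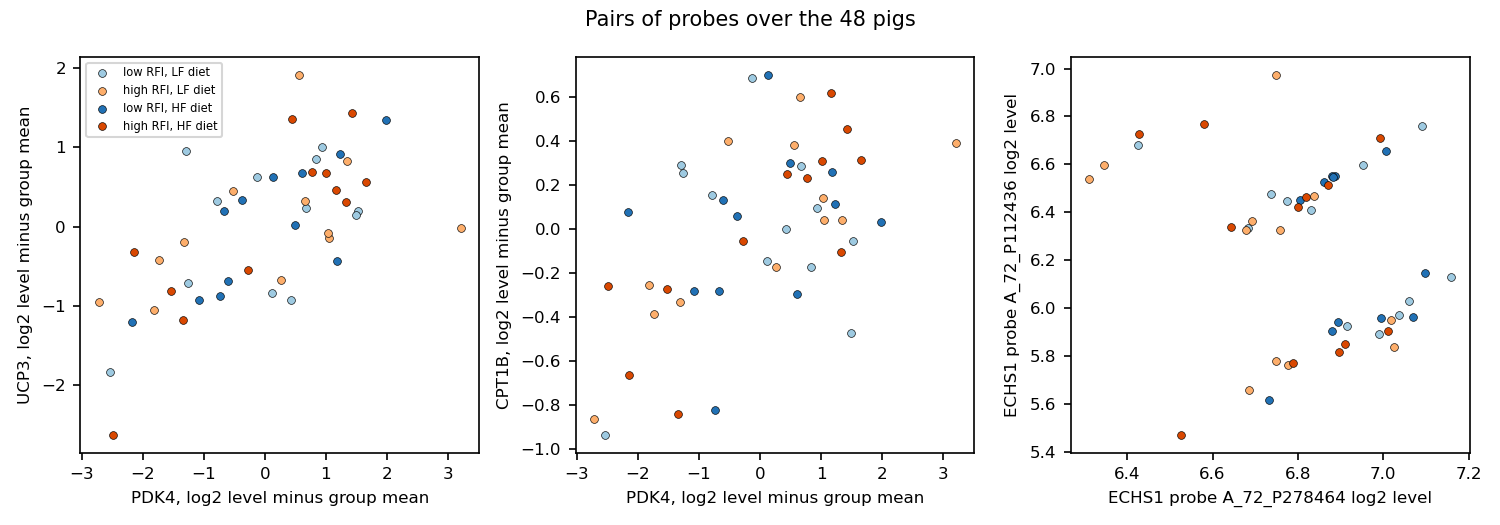
Pairs of probes over the 48 pigs, coloured by group. Left and centre, log2 level minus the group mean of PDK4 (x) against UCP3 and CPT1B (y), with r = 0.64 and 0.54. Right, log2 levels of the overlapping ECHS1 probes A_72_P278464 (x) and A_72_P112436 (y), whose points lie on 3 parallel bands of 6, 21 and 21 pigs.

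Between the diets no gene of the list was called. None of the 35 representative probes and none of the 125 probes passed, where 0.42% of all tested probes did, 0.176% higher and 0.245% lower on the HF diet (limma). At an unadjusted p under 0.05, 3 of the 35 genes (8.57%) were reached, against 13.1% of all probes. These were UCP2, a second uncoupling protein (−0.37 on the HF diet, 95% interval −0.62 to −0.11, adjusted p = 0.167), PPARGC1A (−0.20, −0.36 to −0.03, adjusted p = 0.284) and ACSL4 (−0.11, −0.22 to −0.01, adjusted p = 0.34). UCP2 ranged from 0.14 to 2.16 over the LF pigs (median 0.81) and from −0.13 to 1.30 over the HF pigs (median 0.44). Its second probe gave −0.49 (adjusted p = 0.139). At the representative probes, the 5 acyl-CoA dehydrogenases differed by −0.08 to 0.06 between the diets, and the core of 13 enzymes had no interval beyond −0.17 or 0.23. Within the low RFI line none of the 35 genes was called for diet (0.199% of all probes called) and 2 were reached at an unadjusted p under 0.05 (11.6% of all probes). Within the high RFI line none was called (0.0% of all probes) and 1 was reached unadjusted (5.47% of all probes).

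The line difference was then read on each diet. None of the 35 genes was called on the HF diet, where 6.39% of all probes were, or on the LF diet, where 2.47% were (limma), and 6 and 5 genes were reached at an unadjusted p under 0.05, as were 24.2 and 16.5% of all probes. On the HF diet 25 of the 35 genes lay above 0, with a median of 0.10, and on the LF diet 9 of 35, with a median of −0.06. Over all tested probes the medians were −0.03 on each diet. The interaction, the line difference on the HF diet minus that on the LF diet, was above 0 for 32 of the 35 genes, with a median of 0.11, against 20271 of 42125 probes (48.1%) and a median of −0.01 over the whole array. EHHADH, UCP2 and PPARD were the genes below 0.

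No single interaction was called. The smallest adjusted p of the 35 genes was 0.999 (limma), none was reached at an unadjusted p under 0.05 (4.45% of all probes were), and every 95% interval included 0. The largest value, 0.41 for PDK4, had an interval of −1.18 to 2.01, and LPL (0.28, −0.01 to 0.58) came closest to excluding 0. These values are those of the representative probes. Of all 125 probes, 2 were reached at an unadjusted p under 0.05 (1.6%), and the largest absolute interaction was 0.81. All 35 values rest on the same 48 pigs and are not independent, so the count of 32 is given as a description.

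**Figure D5:**
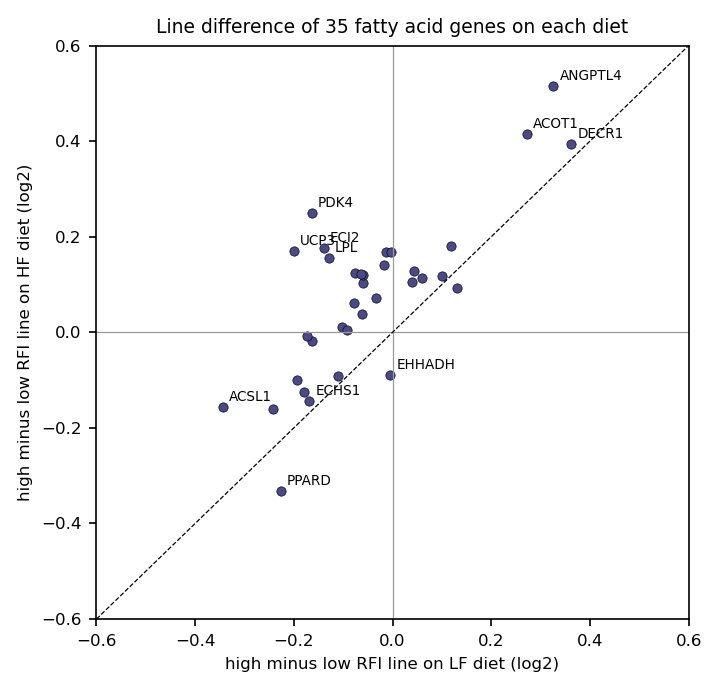
Line difference (high minus low RFI, log2) of the 35 genes at their representative probes on the LF diet (x) and on the HF diet (y), with the line of equal differences dashed. Of the 35 points, 32 lie above the dashed line, and EHHADH, UCP2 and PPARD lie below it.

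Beyond the 35 genes, 84 further genes of fatty acid handling were listed, of which 65 had a tested probe. At the representative probe 5 were called as raised and 5 as reduced in high RFI pigs (background, 6.57% and 9.85% of all probes), with a median difference of −0.03 and a median absolute difference of 0.09. None was called between the diets. PHYH, which starts the peroxisomal breakdown of branched chains, had the largest called difference, 0.46 ± 0.08 (SE, 24 pigs in each line; limma, adjusted p = 0.000115), and all 6 of its probes were called (0.46 to 0.70). Also higher were PDP1, the phosphatase that reactivates pyruvate dehydrogenase (0.36), the lipolysis genes ABHD5 (0.32) and LIPE (0.31), and the thioesterase ACOT8 (0.15). Among those lower were PDK1 (−0.23), the thioesterase ACOT13 (−0.18), HSD17B10 (−0.15) and the adenine nucleotide carrier SLC25A4 (−0.13). PDK1 was called at 1 of 3 tested probes, ACOT13 and SLC25A4 at 1 of 2 each. Of those higher, ACOT8 was called at 1 of 4 and LIPE at 2 of 4. HSD17B10, PDP1 and ABHD5 had 1 tested probe each. The probes of ACOT8 and LIPE did not all share the sign of the representative one (−0.11 to 0.16 and −0.10 to 0.33).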

How the data were processed

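Total RNA of each pig was labelled with Cy3 and hybridised to a custom 60K porcine oligonucleotide array of Agilent, and the deposited scanner files hold background-corrected spot intensity from Feature Extraction 10.7.3.1. The authors log2-transformed filtered spot signals and centred each array. The deposited log2 table, an alternative here, holds 34472 probes and equals the log2 median spot signal minus the array median. A read depth does not apply, and the number of arrays limits the precision.

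From the processed intensity, control spots were left out, spots with an outlier flag were set missing (169 values in 168 probes), repeated spots of a probe were averaged, and a probe was kept when 12 or more of the 48 arrays flagged it as well above background. Log2 values were centred on each array's mean. Groups came from the labels. Pigs are numbered within each group in the order of the deposited arrays, not by the numbers in the labels. A model of the 4 group means was fitted to all tested probes with limma 3.58.1 in R 4.3.3, which was tested on simulated data, and p-values were adjusted by Benjamini-Hochberg (threshold 0.05). Differences were the mean of the line or diet differences, each within the other factor, and their interaction. Correlations used Python 3.11.15 with numpy 2.4.6. Probes of one gene were called overlapping when an ungapped alignment of 20 or more bases reached a score of 18 (identical bases minus 2 for each differing base) on either strand.

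The genes, lists and tests were chosen with earlier results of these data known. Full values (lowest, median and highest pig per group) were given for genes called at any probe for line or diet, those with the 3 largest spreads and those of the correlation pairs, and of the other pathway genes for at most the 10 largest called differences. A called gene among these is not reported here. The ECHS1 probe pair, the ACADL spot, the UCP3 pigs left out, and the uncalled differences of single genes printed with their intervals were chosen after their values were seen. No genome build was given, so no coordinates are printed.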

Additional observations from a re-analysis of the deposited data

How the results depend on the processing

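The count of 5 genes called for line was 2 with the probes of a gene averaged (ACSL1, ACSL3), 1 without a filter on dim probes (DECR1), 3 with normexp background correction and 3 without HF_RFIpl pigs 6 and 10, the farthest on the first principal components (DECR1, ANGPTL4, PPARD both times; the last alternative was chosen after seeing the data), and 9 under the methods' variance analysis before adjustment. The count of 13 called probes was 4 without the filter. On the HF diet, 1 gene (DECR1) instead of 0 was called under 75th percentile scaling, the deposited table, normexp, slide as a block and the filter of all 48 arrays. There the called probes numbered 4, 4, 4, 7 and 6 instead of 1, and 2 without the 2 pigs. On the LF diet, 0 probes instead of 1 were called without the filter and under normexp, and 2 with slide as a block or without the 2 pigs. For these counts within a diet, the share of all probes under each alternative is not given here. With slide as a block, 8416 of 42125 probes were called in the line difference over both diets. The cause of these shifts was not tested. All other counts of calls stayed within 1.5 times, and those for diet and interaction stayed at 0. Above 0 on the LF diet, 9 genes became 14 under normexp, 13 without the filter and 13 of 34 in the deposited table. The median of the genes on the LF diet, −0.06, was −0.02 under quantile normalization. Above 0 on the HF diet, 25 genes became 24 to 27. The calls of ACSL3 A_72_P383243 and ACSL1 A_72_P443272 held under all 10 alternatives. The 32 genes with an interaction above 0 ranged from 29 to 32. Signs also changed: CRAT, at −0.10, became 0.023 under quantile normalization, and differences of smaller size turned as follows. ACADM became −0.018 averaged and −0.0020 in the deposited table. ACADL became 0.023, 0.0039, 0.030, 0.012 and 0.0033 (averaged, deposited, normexp, quantile, all 48 arrays), and ETFB 0.021, 0.0053, 0.032, 0.052 and 0.0016 likewise. ECI2 became −0.017 (normexp) and −0.00050 (without the 2 pigs), and ETFA −0.011 and PDK4 −0.041 averaged. LPL became −0.010 in the deposited table and UCP3 0.022, 0.026 and 0.016 (normexp, quantile, without the 2 pigs). The correlation of HADHA with HADHB became −0.19 averaged, and that of ETFA with ETFB −0.032 under quantile normalization. No paired analysis was possible because the labels give no replicate numbers that pair pigs. The median of all probes moved by under 0.1 under every scaling, and dim probes have the least precise values.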
